A study of Mus musculus with 4 samples.

Results

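A set of 7 genes of the deposited expression table were examined here by name as long noncoding RNAs of neural tissue: Miat, Malat1, Neat1, Rmst, Sox2ot, Pantr1 and Snhg11. All 7 have a row among the 22770 genes of the table, and 6 of them passed a filter of at least 0.5 FPKM in 2 or more libraries. FPKM is the number of fragments mapped to a gene, divided by its exon length and by the size of the library, so levels of different genes can be set beside each other. The 4 libraries hold cortical RNA of mouse embryos (embryonic day 16.5), 2 of sey/sey mutants, which carry the small eye allele of Pax6 on both chromosomes, and 2 of wild-type littermates, all on a mixed background of C57BL/6J, 129S6 and CD1. Pax6 encodes a paired-box and homeobox regulator active in cortical progenitors, and the comparison asks which RNAs differ when it is mutant in every cell of the embryo. The labels do not say how many embryos went into a library, so p-values measure only the spread between these samples, which may be partly technical. The mutant libraries differed widely at Xist, as given below, so they are not repeats of the same RNA. Pax6 RNA was 101 and 120 FPKM in mutants, against 28.8 and 27.0 FPKM in wild types. Because sey changes a single base and the RNA is still made, this level cannot check the genotype labels.

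Long noncoding RNAs are spliced or unspliced transcripts without a long reading frame, and many stay in the nucleus. Malat1 gathers in nuclear speckles with splicing factors, Neat1 is the scaffold of paraspeckles, and Miat (also Gomafu) forms its own nuclear foci in neurons. Sox2ot and Pantr1 lie beside transcription factor genes of neural progenitors and neurons, Sox2 and Pou3f3. Rmst binds the SOX2 protein in human neural stem cells, and Snhg11 is a host gene of small nucleolar RNAs with a high level in neurons.

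In mutant cortex Sox2ot was about 5 times as abundant as in wild types and its coding neighbour Sox2 rose as well. Rmst was near the limit of detection in wild types and low but measurable in both mutants. Pantr1 was lower in mutants without passing the test, beside a fall of its neighbour Pou3f3. The abundant nuclear RNAs Miat and Malat1, and Neat1 and Snhg11, had small positive differences that did not pass. Of the 6 members tested 1 rose and 0 fell at a limma adjusted p under 0.05, against 2.02% of all tested genes higher, 1.46% lower and 3.48% in either direction. Among the 1389 tested long noncoding RNA genes 2.02% were called, 1.44% higher and 0.576% lower. The median log2 fold change of the 6 members was 0.26, against 0.02 over the tested long noncoding RNAs and 0.00062 over all tested genes. In all 6 the groups did not overlap, which was the case for 51.6% of all tested genes and 45.9% of the tested long noncoding RNAs. With 2 libraries a group the exact two-sided permutation test cannot give a p below 0.333, so calls rest on limma, which shares the spread across genes. They also rest on all 4 libraries: leaving out any 1 left 7 to 59 called genes in place of 536 and 0 called members.

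**Figure D1:**
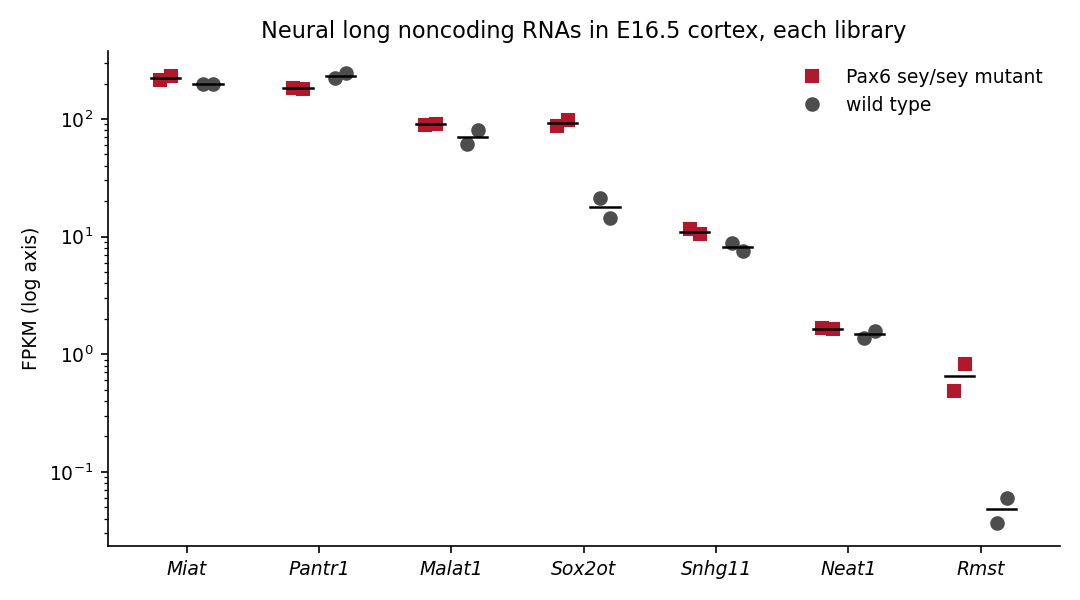
FPKM on a log axis of the 7 noncoding RNAs in each library, mutants as red squares left of wild types as grey circles, with black lines for the means of n = 2 libraries. Sox2ot lies at 87.1 and 98.1 FPKM in mutants, above 21.4 and 14.2 in wild types, while Miat and Malat1 differ little between the groups.

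The 7 genes spanned a wide range of levels. Miat and Pantr1 were the highest, at 222 ± 11.02 and 182 ± 1.94 FPKM in mutants, against 199.5 ± 0.506 and 233 ± 15.98 FPKM in wild types (SD, n = 2). Their order by FPKM was thus the reverse in the 2 genotypes, which was not tested. Among the 3347 long noncoding RNA rows of the table Miat held rank 7 in mutants and 8 in wild types, and Pantr1 rank 10 in mutants and 6 in wild types. Sox2ot and Malat1 were neighbours in the mutant order at 92.6 ± 7.73 and 89.96 ± 1.97 FPKM, a gap within the spread of Sox2ot. In wild types Sox2ot, at 17.8 ± 5.09 FPKM, lay well below Malat1, at 70.6 ± 13.9 FPKM, so Sox2ot held rank 24 among long noncoding RNAs in mutants and rank 119 in wild types. Snhg11 followed at rank 187 in mutants and 222 in wild types, then Neat1 at 729 in mutants and 777 in wild types. The rank of each gene, Neat1 among them, depends on the exon length behind its FPKM, which is not stated. Rmst was lowest, at rank 1204 in mutants and 2524 in wild types.

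**Figure D2:**
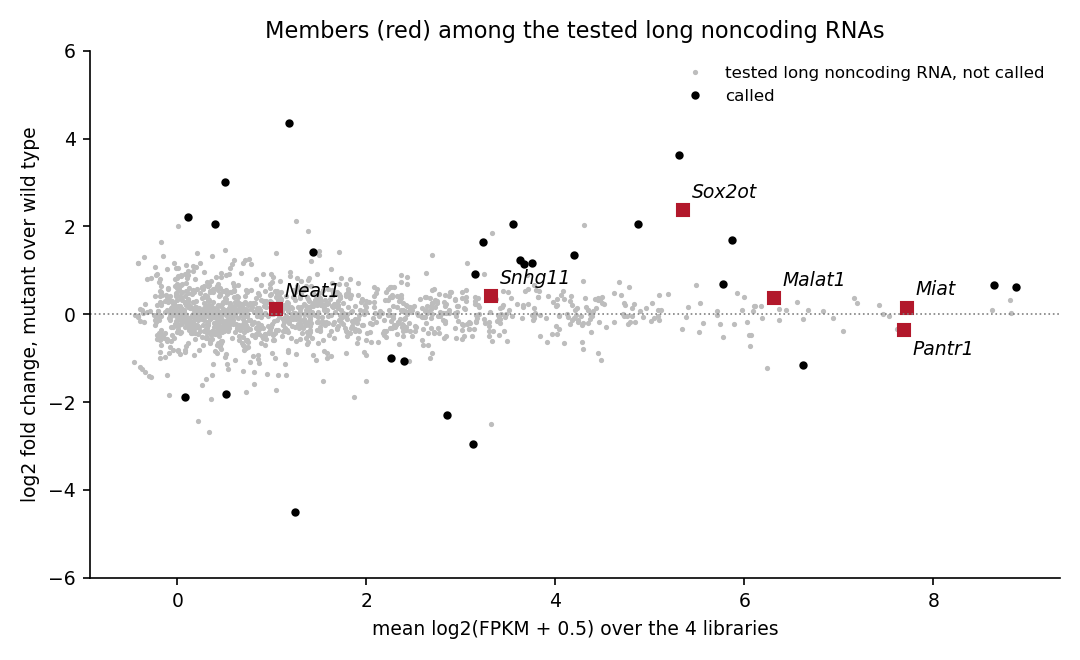
Mutant over wild-type log2 fold change (FPKM + 0.5) against the mean log2 level over the 4 libraries for the tested long noncoding RNAs, with called ones in black and the 6 tested members as red squares. Sox2ot stands at 2.37 and the other 5 lie between -0.36 and 0.41; 1 gene with a larger rise is beyond the axis.

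Sox2ot (ENSMUSG00000105265) is the member that rose. It occupies 578350 bases of chromosome 3, from 34104270 to 34682619 on the plus strand in GRCm38, with 18 annotated transcripts. It read 87.1 and 98.1 FPKM in the mutant libraries, against 21.4 and 14.2 FPKM in the wild-type libraries. Both mutants stood far above both wild types, and the wild types differed more between themselves in relative terms than the mutants did. The log2 fold change on the FPKM + 0.5 scale was 2.37 (SE 0.20, limma adjusted p = 0.0147). Leaving out wild-type library 1 gave 2.66 with an adjusted p of 0.0503, and leaving out wild-type library 2, mutant library 1 or mutant library 2 gave 2.08, 2.45 and 2.28 with adjusted p of 0.0679, 0.0792 and 0.129, each with a lone library assumed to vary like the other group. In the authors' deposited table the ratio of mutant to wild-type group FPKM was 5.19 with a p of 1.03e-13, where 1.83% of all rows have a p under 0.05.

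Sox2 codes for an HMG-box transcription factor of neural progenitors and lies inside an intron of Sox2ot on the same strand, from 34650405 to 34652461. The annotated exons of both genes share 0 bases. The deposited table gives Sox2 the locus of Sox2ot, and whether fragments of unspliced Sox2ot were counted for Sox2 was not tested. Sox2 read 78.5 and 93.1 FPKM in mutants, against 25.8 and 22.9 FPKM in wild types, and rose by 1.79 on the log2 scale (SE 0.11, limma adjusted p = 0.00746). The groups were far apart here too. The Sox2 call was lost without mutant library 2, wild-type library 1 or wild-type library 2, with log2 fold changes of 1.67, 1.88 and 1.71 and limma adjusted p of 0.0659, 0.0790 and 0.0971.

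The ratio of Sox2ot to Sox2 was 1.11 and 1.05 in mutants, against 0.832 and 0.622 in wild types, so it was higher in both mutants. Which of the 2 genes was more abundant in either genotype is uncertain, since the exon lengths behind the FPKM are not stated. The 2 genes' log2 fold changes differed by 0.58 (95% interval 0.14 to 1.01, limma unadjusted p = 0.0192), which did not pass after adjustment over the 1389 pairs of a long noncoding RNA and its nearest tested coding gene (adjusted p = 0.437). It was 0.78 without wild-type library 1 and 0.37 without wild-type library 2 (adjusted p = 0.221 and 0.685). A ratio that was not called does not show that both genes changed alike. Of these pairs 0.144% were called, and 40.1% had ratios that did not overlap between the groups.

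Of the other genes at the locus, Dnajc19, a mitochondrial protein import gene 22948 bases upstream, had 28.8 and 34.1 FPKM in mutants, against 33.4 and 36.0 FPKM in wild types (log2 fold change -0.14, 95% interval -0.42 to 0.13). Atp11b, a phospholipid flippase gene more than a megabase downstream, had a log2 fold change of -0.08 (95% interval -0.26 to 0.09). Neither passed the test, and the ratio of Sox2ot to either was not tested. Within the Sox2ot span, the unclassified transcript Gm42692 read 3.06 and 3.99 FPKM in mutants, against 0.372 and 0.914 FPKM in wild types (log2 fold change 1.85, limma adjusted p = 0.0526), and the opposite-strand Gm20515 read 0.889 and 1.35 FPKM in mutants, against 0.540 and 0.402 FPKM in wild types (adjusted p = 0.249).

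**Figure D3:**
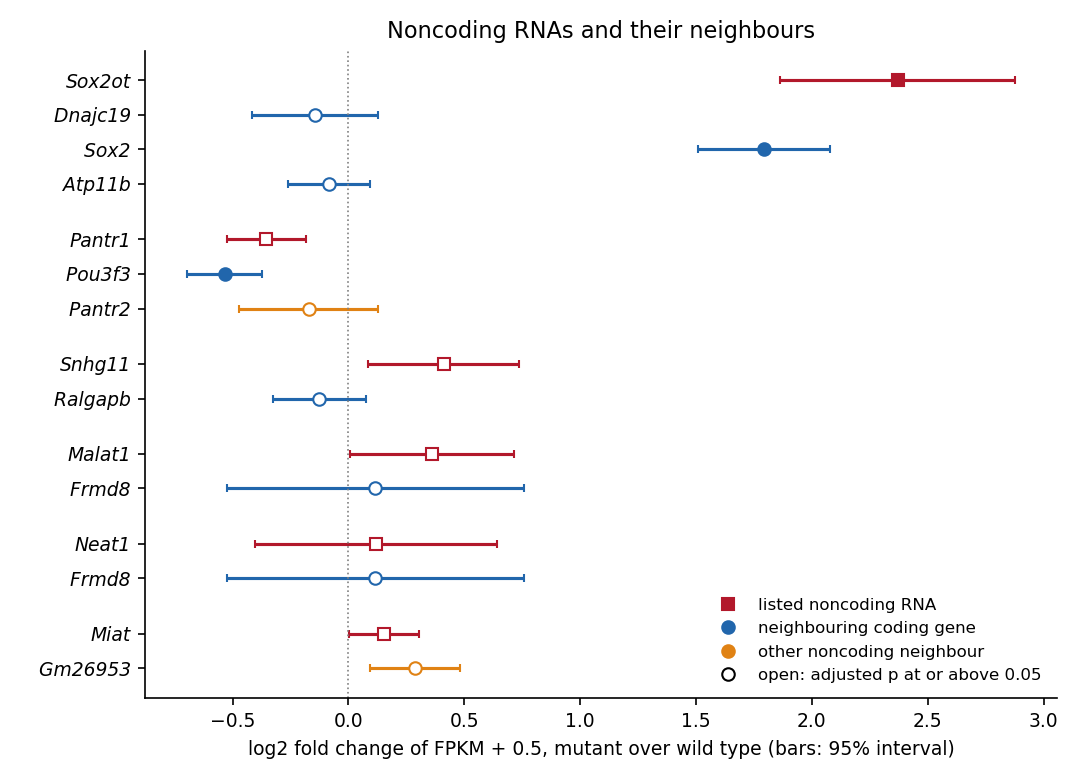
Mutant over wild-type log2 fold changes (FPKM + 0.5) with 95% intervals from limma, for each tested member (red squares) and neighbours of it (coding in blue, noncoding in orange); filled symbols have an adjusted p under 0.05. Sox2ot and Sox2 lie at 2.37 and 1.79, with the flanking Dnajc19 and Atp11b near 0, and Pantr1 and Pou3f3 lie at -0.36 and -0.53.

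Pantr1 (ENSMUSG00000060424, chromosome 1, 42590782 to 42694842, minus strand) and Pou3f3 point away from each other. Their annotated starts are 925 bases apart. Pou3f3 codes for the POU factor Brn1 of upper-layer neurons and their progenitors. The promoter of Pou3f3 from RefSeq (chr1:42695518-42695817, plus strand, GRCm38.p6) lies in this gap and the start of the gene, and is shown with that of Sox2 (chr3:34649745-34650044, plus strand) because the noncoding and coding RNA of both loci differed in the same direction. Capitals mark any of 4 motifs searched on both strands: TAATTA, a homeodomain core, CAGCTG, an E-box, ACAAAG, an HMG-box core, and TTCACGC, a core of the Pax6 paired-domain consensus.
Pou3f3 promoter: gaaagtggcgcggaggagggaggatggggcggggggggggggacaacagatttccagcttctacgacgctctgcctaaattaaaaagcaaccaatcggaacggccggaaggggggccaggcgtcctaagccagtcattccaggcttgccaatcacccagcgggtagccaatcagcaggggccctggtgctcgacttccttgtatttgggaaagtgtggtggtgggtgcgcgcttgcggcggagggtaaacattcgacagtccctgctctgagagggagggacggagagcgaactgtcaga
Sox2 promoter: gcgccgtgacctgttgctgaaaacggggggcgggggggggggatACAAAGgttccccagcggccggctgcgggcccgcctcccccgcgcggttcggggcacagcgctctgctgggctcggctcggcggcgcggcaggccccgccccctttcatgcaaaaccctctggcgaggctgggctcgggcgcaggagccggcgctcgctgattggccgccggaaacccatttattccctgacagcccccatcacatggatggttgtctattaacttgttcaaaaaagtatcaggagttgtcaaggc
The window of Sox2 holds 1 ACAAAG and that of Pou3f3 none of the 4. Of 32851 promoter windows of 300 bases, 5.29% hold TAATTA, 16.3% CAGCTG, 18.7% ACAAAG and 1.26% TTCACGC. A match or its absence describes these letters in this window only.

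Pantr1 read 183 and 181 FPKM in mutants, against 222 and 245 FPKM in wild types. Both mutants were below both wild types, with little spread between the mutants. The log2 fold change was -0.36 (SE 0.07, 95% interval -0.53 to -0.19), with a limma adjusted p of 0.0649, so it was not called. In the authors' deposited table the ratio of mutant to wild-type group FPKM was 0.780 and the p was 0.0187.

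Pou3f3 read 83.7 and 82.2 FPKM in mutants, against 116 and 125 FPKM in wild types, and it fell (log2 fold change -0.53, SE 0.06, limma adjusted p = 0.0280). Its call was lost without any 1 of the 4 libraries, with log2 fold changes of -0.59 to -0.48 and adjusted p of 0.105 to 0.199. The ratio of Pantr1 to Pou3f3 was 2.192 and 2.199 in mutants, against 1.92 and 1.96 in wild types. The difference of their log2 fold changes was 0.18 (95% interval -0.01 to 0.37, limma adjusted p = 0.548), so a differing change of the 2 genes was not detected. Pantr2, a noncoding gene beyond the other end of Pou3f3 that is needed for normal cortical development in mice, read 20.6 and 20.0 FPKM in mutants, against 20.8 and 25.4 FPKM in wild types (log2 fold change -0.17, 95% interval -0.47 to 0.13, adjusted p = 0.493).

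The Pou3f genes, which code for related POU factors, were split. Pou3f2 (Brn2) fell to 52.9 and 58.0 FPKM in mutants, against 92.7 and 101 FPKM in wild types (log2 fold change -0.80, limma adjusted p = 0.0197). Pou3f4 (Brn4) rose to 23.8 and 28.5 FPKM in mutants, against 5.98 and 4.85 FPKM in wild types (2.17, adjusted p = 0.00923). Pou3f1 had a log2 fold change of -0.80 and an adjusted p of 0.0976. Of the 4 genes 1 rose and 2 fell.

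**Figure D4:**
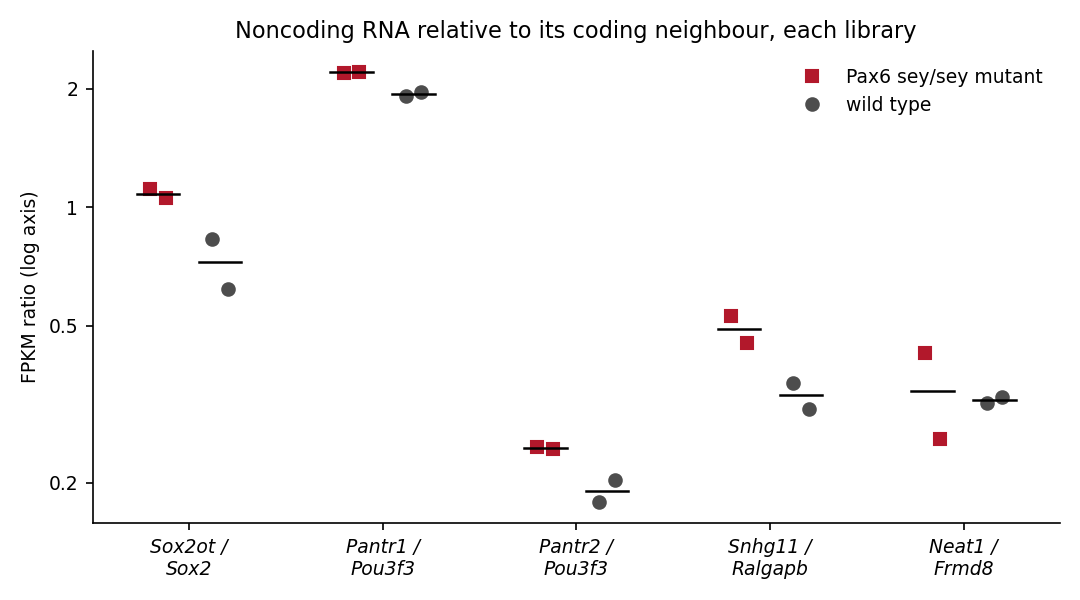
Ratio of the FPKM of a noncoding RNA to that of a coding neighbour, on a log axis, in each library, with mutants as red squares left of wild types as grey circles and black lines for the means of n = 2 libraries. The ratio of Sox2ot to Sox2 is 1.11 and 1.05 in mutants and 0.832 and 0.622 in wild types, and that of Pantr1 to Pou3f3 is close to 2 in every library.

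Rmst (chromosome 10, 92071037 to 92165170, minus strand) was the member nearest to absence. The table lists it under the older identifier ENSMUSG00000097348, with the span of the present ENSMUSG00000112117. It read 0.489 and 0.821 FPKM in mutants, against 0.0365 and 0.0598 FPKM in wild types. Both mutants were above both wild types and differed clearly between themselves. Judged by the lowest frequent values of each library and the present exon length of 7423 bases, these levels correspond to roughly 29.6 and 63.2 fragments in mutants, against 2.45 and 3.15 fragments in wild types, an approximation, since the exon length behind the deposited FPKM is not stated. Only mutant library 2 reached 0.5 FPKM, so Rmst did not pass the filter and has no test in the main fit. With no filter, its log2 difference on the FPKM + 0.5 scale was 1.06 (SE 0.20, limma adjusted p = 0.137), where 0.268% of 22770 genes were called. The authors' deposited table gives a ratio of 13.6 and a p of 1.0. Gm26700, an annotated noncoding gene on the opposite strand that shares 1955 exon bases with Rmst, read 0.136 and 0.299 FPKM in mutants and is listed at 0 in both wild types. Strand use in the counting is not stated, so the reads of these 2 genes cannot be told apart.

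Rmst has no coding gene near it. Nedd1, a centrosome protein gene 519575 bases away, read 7.80 and 8.30 FPKM in mutants, against 5.37 and 5.22 FPKM in wild types (log2 fold change 0.56, limma adjusted p = 0.0955). Tmpo, which codes for a nuclear lamina protein and lies 889721 bases away on the other side, rose to 104 and 118 FPKM in mutants, against 65.4 and 67.5 FPKM in wild types (0.73, adjusted p = 0.0238), a call lost without any 1 library (0.64 to 0.82, adjusted p 0.0601 to 0.182). The introns of Rmst hold the precursors of miR-135a and miR-1251, whose mature RNAs were not measured in this table. Their sequences from RefSeq (chromosome 10, GRCm38.p6, minus strand) show what a transcript through Rmst would carry, with the seed, bases 2 to 8, in capitals.
mmu-miR-135a-5p: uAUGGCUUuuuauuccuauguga
mmu-miR-135a-2-3p: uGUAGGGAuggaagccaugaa
mmu-miR-1251-5p: aCUCUAGCugccaaaggcgcu
mmu-miR-1251-3p: cGCUUUGCucagccaguguag
No 2 of the 4 share a seed.

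A list of 9 genes named with Rmst and SOX2 in human neural stem cells, as protein partners, related Sox genes or target genes, were listed. Of these 9 tested genes 4 rose and 1 fell, with a median log2 fold change of 1.54. Sox1, a close relative of Sox2, rose to 45.7 and 49.0 FPKM in mutants, against 13.5 and 11.4 FPKM in wild types (log2 fold change 1.89, limma adjusted p = 0.00582). Sox3, a further Sox gene of the list, was lower, at 1.84 and 2.42 FPKM in mutants, against 4.90 and 6.26 FPKM in wild types. Its log2 fold change was -1.21 (limma adjusted p = 0.0567), so it was not called. Dlx1, Sox2 and Sp8 rose and Neurog2 fell. Hnrnpa2b1, an RNA-binding protein gene, had a log2 fold change of 0.17 and a limma adjusted p of 0.216. This list holds genes already known to differ in these libraries, so its counts are no independent evidence.

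Miat (ENSMUSG00000097767, chromosome 5, 112213228 to 112229395, minus strand) read 214 and 230 FPKM in mutants, against 199 and 199.9 FPKM in wild types. The mutants were higher by a small margin, by 0.15 on the log2 scale (SE 0.06, 95% interval 0.0040 to 0.30, limma adjusted p = 0.248). Gm26953 on the opposite strand shares 2260 exon bases with it and read 110 and 98.0 FPKM in mutants, against 83.3 and 86.6 FPKM in wild types (0.29, adjusted p = 0.135). As strand use is not stated, both values are uncertain. The nearest coding genes with a row are the lens crystallin genes Cryba4, at 0.207 and 0.134 FPKM in mutants, against 0.181 and 0.795 FPKM in wild types, and Crybb1. Miat stood far above both, and its ratio to Crybb1, the nearest that passed the filter, was 351 and 205 in mutants, against 166 and 237 in wild types.

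Miat is known for repeats of UACUAAC, the branch-point sequence that splicing factor 1 binds. The longest annotated transcript, Miat-205 of 9163 bases, holds 6 copies of TACTAAC on its own strand, in 2 stretches shown here because they set Miat apart from the other members. Copies are in capitals, in the order 5′ to 3′ of the transcript (GRCm38, minus strand, chr5:112217309-112217460 and chr5:112216752-112216812).
Miat repeat stretch 1: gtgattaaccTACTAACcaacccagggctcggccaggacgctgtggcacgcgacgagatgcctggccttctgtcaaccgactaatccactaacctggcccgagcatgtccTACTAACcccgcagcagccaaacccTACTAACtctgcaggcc
Miat repeat stretch 2: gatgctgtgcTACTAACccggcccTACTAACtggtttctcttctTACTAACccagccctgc
Of the longest transcripts of the 1389 tested long noncoding RNAs, 4.18% hold any copy and none but Miat holds more than 2. These counts are not per length, and Miat-205 is among the 11 longest of these transcripts. Neat1 has 1 copy, and Malat1, Pantr1, Snhg11, Sox2ot and Rmst have 0. Sf1, which codes for splicing factor 1, read 140 and 141 FPKM in mutants, against 115 and 123 FPKM in wild types (log2 fold change 0.24, 95% interval 0.08 to 0.39, limma adjusted p = 0.123).

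Among 13 tested splicing factor genes that bind Miat or Malat1 or regulate neuronal splicing, 0 rose and 1 fell, with a median log2 fold change of 0.15. The one that fell was Rbfox1, a neuronal splicing regulator, at 49.6 and 46.7 FPKM in mutants, against 86.7 and 83.4 FPKM in wild types (log2 fold change -0.81, limma adjusted p = 0.0133). Srsf1, a speckle protein gene, had 331 and 377 FPKM in mutants, against 269 and 288 FPKM in wild types (0.34, adjusted p = 0.112).

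Malat1 and Neat1 lie close together on the minus strand of chromosome 19. Malat1 (ENSMUSG00000092341, 5795690 to 5802672) read 88.6 and 91.4 FPKM in mutants, against 60.8 and 80.4 FPKM in wild types. The groups did not overlap, but the wild types differed more between themselves than wild-type library 2 did from the mutants. The log2 fold change was 0.36 (SE 0.14, limma adjusted p = 0.250), and it was 0.16 without wild-type library 1 and 0.56 without wild-type library 2. Gm37376 on the opposite strand lies within Malat1, read 91.4 and 107 FPKM in mutants, against 68.7 and 77.2 FPKM in wild types, and cannot be told apart from it without strand.

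Neat1 (ENSMUSG00000092274, 5824708 to 5845478) was far lower, at 1.66 and 1.64 FPKM in mutants, against 1.38 and 1.58 FPKM in wild types. The log2 fold change was 0.12 (95% interval -0.40 to 0.64, limma adjusted p = 0.801), so a change was not detected and the interval is wide. Frmd8, a coding neighbour 4223 bases from Neat1, read 3.87 and 6.36 FPKM in mutants, between which both wild types lay at 4.31 and 4.80 FPKM. The ratio of Neat1 to Frmd8 was 0.428 and 0.258 in mutants, against 0.319 and 0.330 in wild types. It was not called (limma adjusted p = 0.998).

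Of 14 genes for paraspeckle proteins and regulators of Neat1, 0 rose and 0 fell in limma. Their median log2 fold change was 0.11, 13 of 14 lay above 0, the range was -0.03 to 0.22 and the smallest adjusted p was 0.133. Of all 15399 tested genes 7715 lay above 0, and of the 13 tested splicing factor genes 12 did. Sfpq read 359 and 378 FPKM in mutants, against 332 and 351 FPKM in wild types, and Nono 282 and 300 FPKM in mutants, against 275 and 277 FPKM in wild types. RNA of Sfpq and Nono was thus abundant in cortex in which Neat1 read below 2 FPKM. The annotated exon of Neat1 is 20771 bases long, and neither the exon length behind the deposited FPKM nor the RNA selection is stated. The level of Neat1 relative to these genes is therefore uncertain.

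Snhg11 (ENSMUSG00000044349, chromosome 2, 158375638 to 158386145, plus strand) read 11.6 and 10.5 FPKM in mutants, against 8.76 and 7.61 FPKM in wild types. The mutants were above the wild types, by 0.41 on the log2 scale (SE 0.13, 95% interval 0.08 to 0.74, limma adjusted p = 0.181). GENCODE M21 lists the gene as protein-coding and RefSeq as a long noncoding RNA. Ralgapb, a GTPase-activating protein gene 23702 bases away, read 21.8 and 23.2 FPKM in mutants, against 24.4 and 24.7 FPKM in wild types (log2 fold change -0.13, adjusted p = 0.456). The ratio of Snhg11 to Ralgapb was 0.530 and 0.454 in mutants, against 0.358 and 0.308 in wild types, a difference of 0.54 in log2 fold change (95% interval 0.07 to 1.002, limma adjusted p = 0.487).

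Of 15 tested snoRNA host genes other than Snhg11, 0 rose and 0 fell, and 7 had a log2 fold change above 0 (median -0.02). Over all 15399 tested genes 7715 had one above 0. Gas5 read 450 and 462 FPKM in mutants, against 462 and 430 FPKM in wild types. Snhg17, the noncoding gene next to Snhg11, read 27.3 and 26.9 FPKM in mutants, between 24.8 and 31.3 FPKM in wild types. Snhg18 had the largest difference of the list, 2.13 and 1.61 FPKM in mutants, against 4.78 and 8.11 FPKM in wild types (log2 fold change -1.51, limma adjusted p = 0.0668).

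Of 22 tested rows of a list of other noncoding RNAs of neural tissue, chosen with earlier results of these data known, 6 rose and 0 fell, 2 of the 6 under the symbol Dlx6os1. Over all tested long noncoding RNAs 1.44% rose and 0.576% fell. The median log2 fold change of the list was 0.34, and 17 of the 22 rows lay above 0, against 727 of the 1389 tested long noncoding RNAs. Dlx6os1, antisense to Dlx6, rose to 120 and 159 FPKM in mutants, against 12.8 and 9.08 FPKM in wild types (log2 fold change 3.62, limma adjusted p = 0.00541), a short RNA under the same symbol was called too, and Dlx1as rose to 104 and 104 FPKM in mutants, against 35.5 and 28.7 FPKM in wild types (1.69, adjusted p = 0.00783). Both overlap Dlx genes on the other strand, so the values are uncertain. Meg3, of an imprinted cluster, rose to 501 and 508 FPKM in mutants, against 311 and 321 FPKM in wild types (0.68, adjusted p = 0.0120), and Rian and Mirg of the same cluster, named after their values were seen, rose by 0.61 and 1.16. Tug1, C130071C03Rik and Mir124a-1hg, all above 50 FPKM, had log2 fold changes of 0.10, -0.03 and 0.25 and were not called. Xist, a further member of the list, read 350 FPKM in mutant library 1 and 0.131 FPKM in mutant library 2, against 0.224 and 0.0788 FPKM in wild types, so mutant library 1 stood apart from the other 3 at this X-linked gene. None of the 7 members is on chromosome X, but whether this difference between libraries bears on their levels was not tested.

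**Figure D5:**
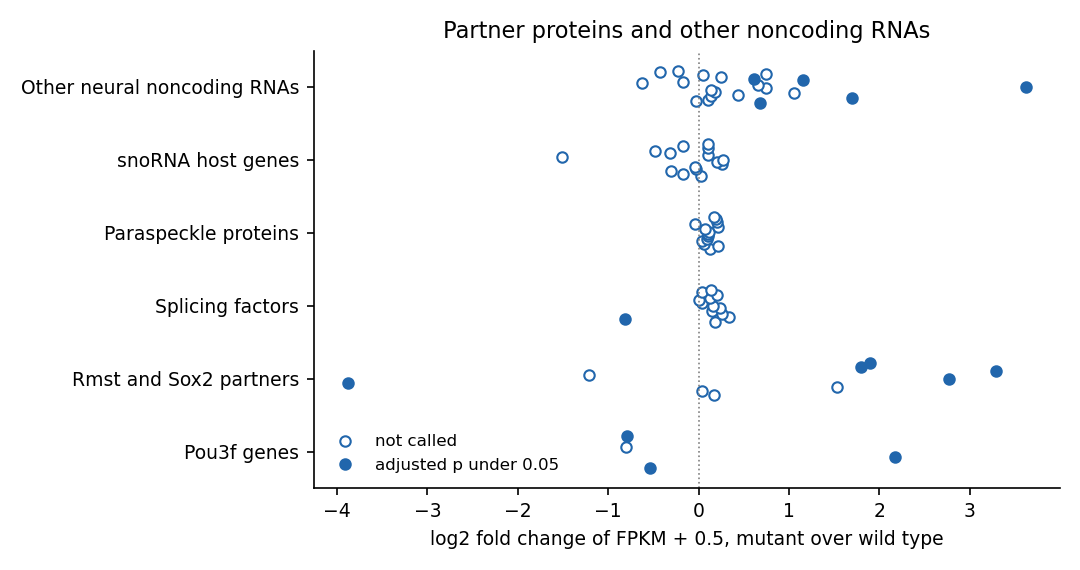
Mutant over wild-type log2 fold changes (FPKM + 0.5) for the tested genes of 6 lists, filled where the adjusted p is under 0.05 and spread vertically for legibility. The 14 paraspeckle genes lie between -0.03 and 0.22. The list labelled Rmst and Sox2 partners, which also holds related Sox genes and target genes, reaches from -3.88 to 3.29. The short Dlx6os1 row at 11.8 is beyond the axis.

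In 11 of the 1389 pairs both the noncoding RNA and its nearest coding gene were called, and in 10 of these both differed in the same direction. Of all tested long noncoding RNAs 2.02% were called, and of all tested genes 3.48%. The share of same-direction pairs over all 1389 was not computed, so the 10 have no background. The 11 are not independent, since Slc32a1 is the neighbour of both Gm14204 and Gm14205. The nearest coding gene can also be far, as Gm29260 lies 756208 bases from Pou3f3. Sox2ot and Sox2 are one of the 11 pairs. Another 2, named after their values were seen, lie beside Sox1 and Pax6. Sox1ot (Gm5607 in the table), which spans Sox1, rose to 21.2 and 25.7 FPKM in mutants, against 5.87 and 4.73 FPKM in wild types (log2 fold change 2.05, limma adjusted p = 0.0122). Paupar, 7557 bases from Pax6, rose to 1.73 and 2.76 FPKM in mutants, against 0.0414 and 0.268 FPKM in wild types (2.06, adjusted p = 0.0454). The spans of both genes overlapped in 6 of the 11 pairs, where fragments may have been shared.

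The genes whose profiles over the 4 libraries were nearest to each member, by Euclidean distance between centred log2 values, were found as a description. For Sox2ot these were Pou3f4 (distance 0.29), Ccnd2, which codes for cyclin D2 (0.33), and Neb (0.33), so no gene was very close. For Rmst they were Fancd2, Brinp2 and Kif23 at 0.06 to 0.07, each with a log2 fold change of 1.01 to 1.05; the pseudocount compresses the difference of Rmst to 1.06, so this likeness is set in part by the 0.5 FPKM added and is not one of FPKM ratios. Miat was nearest to Zdhhc17 (0.01) and Tcf4 (0.02), Pantr1 to Sephs2, Ext1 and Srrm4 (0.02 to 0.03), Malat1 to Ptpru (0.02), Neat1 to Rexo1 (0.01) and Snhg11 to Ppwd1 (0.02). Small distances among genes that barely differ say little, since most genes have flat profiles.

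Markers of several cell types were measured in the same libraries. The summed level of 6 interneuron markers was 645 and 744 FPKM in mutants, against 116 and 94.6 FPKM in wild types, and all 6 rose. For 6 cortical markers it was 828 and 789 FPKM in mutants, against 1159 and 1253 FPKM in wild types, with 4 fallen and 0 risen. The 6 meningeal markers summed to 28.1 and 6.74 FPKM in mutants, against 4.63 and 3.26 FPKM in wild types, highest in mutant library 1, and 7 vessel markers to 93.1 and 76.1 FPKM in mutants, against 66.9 and 63.2 FPKM in wild types, both with 0 called. The 6 microglial markers summed to 16.1 and 14.5 FPKM in mutants, against 16.7 and 20.97 FPKM in wild types, and 5 blood markers to 1814 and 1747 FPKM in mutants, against 1558 and 1728 FPKM in wild types, with 0 called in either list. The part of these differences in the levels of Sox2ot, Rmst and Pantr1 was not tested, and in bulk tissue more cells of a type and more RNA per cell cannot be told apart.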

How the data were processed

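Per the file headers, the authors deposited FPKM for each of the 4 libraries and each genotype, with a fold (ratio, mutants over wild types) and a p-value for every gene. TopHat2 2.0.9, Cufflinks 2.2.1 and edgeR, and builds GRCm38.p4 and mm10, are listed with no role in the submitters' processing notes. The test behind the deposited p-value, strand use and RNA selection are not given in the sources used here. Symbols and coordinates come from GENCODE M21 (GRCm38), which held 22621 of the 22770 identifiers. For all 7 members the locus in the table equals the annotated span.

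Column totals were 579698 to 593256 FPKM, of which 13.1% to 15.2% came from mitochondrial genes. FPKM keeps no fragment totals, so absolute depth is unknown. The 15399 genes that reached 0.5 FPKM in 2 or more libraries entered a linear model of log2(FPKM + 0.5) on genotype in limma 3.58.1 under R 4.3.3 (eBayes with a mean-variance trend, Benjamini-Hochberg adjustment over all tested genes, threshold 0.05, two-sided). Fold changes on this scale understate the change of low genes. The log2 ratio of each of 1389 tested long noncoding RNAs to its nearest tested coding gene was fitted the same way, with the variance trend along the lower of both levels. Named genes are the 7 members, the nearest coding gene on each side, any coding gene within them, the neighbours listed for them, Pax6, up to 4 called genes of each list with the smallest p, and the 3 nearest profiles with a mean of at least 1 FPKM, other than predicted genes. Other genes named, such as Pantr2, Sf1, Srsf1, Sfpq, Nono, Gas5, Snhg17, Snhg18, Hnrnpa2b1, Tug1 and Pou3f1, are examples chosen after their values were seen. The members and lists were chosen with earlier results of these data known. Results for some genes under the rule are not reported here. Alternatives were other pseudocounts, filters and scalings, no trend, a replicate block and leaving out each library.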

Additional observations from a re-analysis of the deposited data

How the results depend on the processing

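The call of Sox2ot held with a pseudocount of 0.1 or 1, with both rescalings, with the stricter filter (1 FPKM in both libraries of a group) and with the replicate block, and its log2 fold change was positive under all alternatives run. With no filter 61 genes, 8 long noncoding RNAs and 0 members were called (Sox2ot limma adjusted p = 0.0568), and without the mean-variance trend 54, 6 and 0 (0.0623). The call of Sox2 held with no filter (limma adjusted p = 0.0358) and was lost without the trend (0.0552). Those of Pou3f3 and Tmpo were lost with no filter (limma adjusted p = 0.0677 and 0.0662) and without the trend (0.111 and 0.0928). With the settings of the report 2997 of the 15399 tested genes, and 5 of the 6 tested members, had an unadjusted limma p under 0.05. The members were chosen with earlier results of these data known, so their count is no independent evidence. With the stricter filter 44 long noncoding RNAs, against 28, and 7 ratios to a neighbour, against 2, were called. Leaving out 1 library gave 7 to 59 called genes, against 536, 1 to 7 long noncoding RNAs, 0 members and 2 to 3 ratios. Without 1 library the limma log2 fold change of Sox2ot was 2.08 to 2.66. The replicate number as a block gave 374 called genes, 26 long noncoding RNAs, 1 member and 2 ratios. The deviations of same-numbered libraries correlated at 0.0492, which cannot exclude a shared litter or batch with so few libraries. The replicate numbers are not stated to pair the libraries, so pairs of replicates were not used in the main fit. The values of 2 results changed sign: Frmd8 was -0.21 without mutant library 2 (0.05 to 0.44 without another library), and the log2 difference of Neat1 to Frmd8 was -0.0140 with a pseudocount of 1, -0.33 without mutant library 1 and -0.0039 without wild-type library 1 (0.33 at most, without mutant library 2). The cause was not tested. Absolute depth is unknown, and the fragment numbers given for Rmst, the member with the lowest FPKM, are approximate. The precision that they set was not computed.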
